A study of Homo sapiens with 6 samples.

Results

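The 39 protein-coding genes of the HOXA, HOXB, HOXC and HOXD clusters were examined among the genomic regions bound by N-Myc and by JMJD6 in CHP-134 cells. CHP-134 is a human neuroblastoma cell line. The members were every gene whose symbol is HOX, a cluster letter and a number, and they are 39 of 20136 protein-coding genes in the annotation used. Chromatin immunoprecipitation sequencing (ChIP-Seq) was done against N-Myc in 3 replicates, after cross-linking with formaldehyde alone, and against JMJD6 in 3 replicates, after double cross-linking with disuccinimidyl glutarate (DSG) and formaldehyde. Antibody and cross-linking therefore cannot be told apart when the lists of the proteins are set side by side. The deposited lists hold only peaks common to all 3 replicates of a protein (10172 for N-Myc, 561 for JMJD6, 241 shared), and the promoters, typical enhancers and super-enhancers that these peaks overlap. They give positions and gene names but no peak height, read count or value per replicate, so a HOX gene is either listed or not, the depth behind each entry is unknown, and the spread between replicates could not be computed. No test was run, and each share is given with its exact (Clopper-Pearson) 95% interval, which covers counting error only and treats neighbouring genes as independent.

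HOX genes encode homeodomain transcription factors that give cells their position along the body axis. Within a cluster they lie side by side in an order that follows their expression from head to tail, and genes of the same number in different clusters are paralogues descended from one ancestral gene. Groups with low numbers pattern the hindbrain and neck, and those with high numbers pattern the trunk, the limbs and the urogenital region. N-Myc, the product of the MYCN oncogene, is a basic helix-loop-helix protein that binds DNA as a dimer with MAX at E-boxes. JMJD6 is a Jumonji-domain protein described as an arginine demethylase and lysyl hydroxylase.

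N-Myc peaks lay at 5 HOX genes near a start site: HOXC8, HOXC9, HOXC13, HOXD13 and HOXA11. For 3 of them, HOXC8, HOXD13 and HOXA11, the sequence is printed because it shows which of the peaks carry the canonical E-box, CACGTG, in the bases that were immunoprecipitated. Each was read from the plus strand of GRCh37 and is in lower case, with the canonical E-box in capitals, or in HOXC8, which has none, the non-canonical motif CATGCG. For HOXC8 (chr12:54403114-54403413), HOXD13 (chr2:176958075-176958374) and HOXA11 (chr7:27223715-27224014) a stretch of 300 bases is shown. HOXA11 is transcribed from the minus strand and the other 4 from the plus strand.
HOXC8: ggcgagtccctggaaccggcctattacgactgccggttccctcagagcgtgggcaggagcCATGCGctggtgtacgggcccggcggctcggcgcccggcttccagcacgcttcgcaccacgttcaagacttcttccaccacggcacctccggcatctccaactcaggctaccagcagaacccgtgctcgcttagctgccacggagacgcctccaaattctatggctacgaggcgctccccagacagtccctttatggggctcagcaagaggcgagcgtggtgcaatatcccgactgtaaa
HOXD13: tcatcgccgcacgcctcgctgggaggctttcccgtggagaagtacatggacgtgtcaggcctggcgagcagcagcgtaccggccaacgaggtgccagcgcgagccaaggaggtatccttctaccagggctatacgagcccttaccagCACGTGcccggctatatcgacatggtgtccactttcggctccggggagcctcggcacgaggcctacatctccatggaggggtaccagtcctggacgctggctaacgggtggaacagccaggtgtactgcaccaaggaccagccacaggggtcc
HOXA11: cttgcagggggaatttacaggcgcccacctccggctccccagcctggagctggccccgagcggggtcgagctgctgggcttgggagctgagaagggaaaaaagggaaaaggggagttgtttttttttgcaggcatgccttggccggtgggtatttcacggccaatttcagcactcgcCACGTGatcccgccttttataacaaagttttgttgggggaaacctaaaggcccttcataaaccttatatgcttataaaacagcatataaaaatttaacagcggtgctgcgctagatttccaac
The HOXC13 peak has a pair of canonical E-boxes, the HOXC9, HOXD13 and HOXA11 peaks have 1 each, and the HOXC8 peak has 0.

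The first question was which HOX promoters N-Myc and JMJD6 bind. A promoter was 1 kb on each side of a RefSeq start site. N-Myc was listed at the promoters of 4 HOX genes, HOXC8, HOXC9, HOXC13 and HOXD13, which is 10.3% of the 39 (2.87 to 24.2%), against 17.5% of all protein-coding genes. The interval of the HOX share includes the share of all genes. JMJD6 was listed at 0 of 39 HOX promoters, with an interval up to 9.03%, against 0.626% of all protein-coding genes. With 0.626% of genes listed, a lower share at HOX genes was not detectable. No HOX promoter was therefore in the list bound by both proteins. All 4 listed genes belong to paralogue groups 8 to 13, where 4 of 19 genes were listed, and 0 of 20 genes were listed in groups 1 to 7. This split was not among the planned counts and falls just below the lowest listed group. The share of all genes was 17.5%, 3 of the 4 listed genes are in HOXC, and a difference between groups was not tested. By group, 1 of 3 genes was listed in group 8 (HOXC8), 1 of 4 in group 9 (HOXC9) and 2 of 4 in group 13 (HOXC13 and HOXD13), with 0 in groups 10, 11 and 12. By cluster, 3 of 9 HOXC genes and 1 of 9 HOXD genes were listed, with 0 of 11 HOXA genes and 0 of 10 HOXB genes.

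HOXC13, a regulator of hair keratin genes, had the most E-box-rich of these peaks. The peak was 253 bp wide, narrower than all but 4.21% of N-Myc peaks (median 418 bp), and lay at -318 to -66 bp from the annotated start, negative values being upstream. It held 2 canonical E-boxes, at -178 and -160 bp, which are 17 and 35 bp from the centre of the peak. Of all N-Myc peaks, 4.71% held 2 or more. The peak overlapped no exon, and fell inside the gene of HOXC13-AS, an antisense RNA that starts within HOXC13 and is transcribed in the opposite direction. The promoter of HOXC13-AS was listed as well, so both transcripts share this peak. Its GC content was 63.6%, above that of 92.3% of N-Myc peaks.

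HOXC9, a factor of trunk patterning and motor neuron identity, had the only one of these peaks that covered the annotated start. The peak ran from -163 to 59 bp and was 223 bp wide, which put it at percentile 0.973 of N-Myc peak widths. Its single canonical E-box lay at -109 bp. The GC content, 44.8%, was below the median of N-Myc peaks (53.2%), while the ratio of observed to expected CpG dinucleotides, 1.09, was above that of 98.9% of them (median 0.404). Of the peak, 32 bp were coding and 57 bp untranslated. The peak also overlapped HOXC-AS1, a non-coding RNA transcribed away from HOXC9 whose promoter was listed for N-Myc, and the long annotated span of HOXC6.

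The peaks of HOXC8 and HOXD13 lay inside their coding sequence. At HOXC8, a factor of thoracic patterning, the peak ran from 345 to 797 bp downstream of the annotated start, and 391 of its 453 bp (86.3%) were coding. It held no canonical E-box and 1 non-canonical motif, CATGCG, also in the coding exon. At HOXD13, which patterns the digits, the peak ran from 543 to 996 bp downstream, and 408 of its 454 bp (89.9%) were coding. Its canonical E-box, 773 bp downstream of the start, lay in the coding exon and 6 bp from the centre of the peak. HOXD13 has another canonical E-box at -131 bp, and that one was outside the peak. Both peaks were close to the median in width (percentiles 57.7 and 57.8) and above the median in GC content (60.7% and 61.5%).

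HOXA11, which acts in limb, kidney and uterine development, carried a peak but was not in the promoter list. The peak was 529 bp wide, lay in intronic sequence from 837 to 1365 bp downstream of the annotated start, and held 1 canonical E-box, 954 bp downstream. With HOXA11 counted, 5 of 39 HOX genes (12.8%, 4.3 to 27.4%) had an N-Myc peak within 1 kb of any annotated start, against 20.8% of protein-coding genes. Such a peak without a listed promoter was found for 766 protein-coding genes (18.3% of those with a peak within 1 kb). The start sites listed by the study for the 4 HOX promoters lay 40 to 120 bp from an annotated start of the same gene, and the reason for the difference at HOXA11 was not tested.

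**Figure D1:**
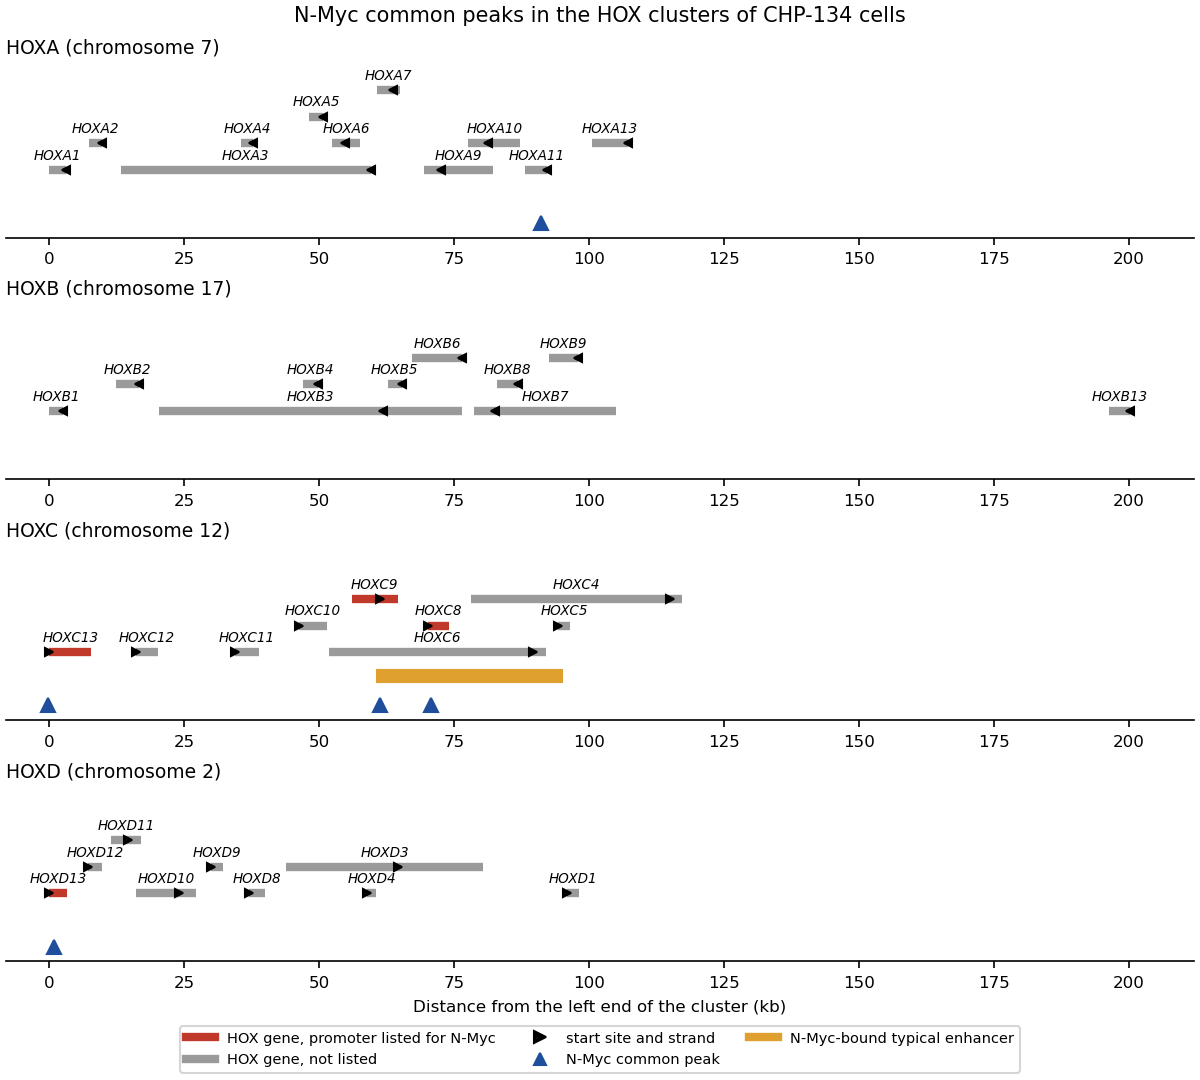
Maps of the 4 HOX clusters, with the distance from the left end of the cluster in kb on the x axis, gene bodies as bars (red where the promoter was listed for N-Myc), start sites as black arrowheads, N-Myc common peaks as blue triangles and the N-Myc-bound typical enhancer in orange. HOXA and HOXD hold 1 peak each, HOXC holds 2 and has the HOXC13 peak just outside its left end, and HOXB holds 0.

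The clusters differed in how far their genes lay from N-Myc peaks. From the outer end of the first HOX gene to that of the last, HOXC (chr12:54332615-54449814, 117 kb) held 2 N-Myc peaks, HOXA (chr7:27132612-27239710, 107 kb) and HOXD (chr2:176957449-177055635, 98.2 kb) held 1 each, and HOXB (chr17:46605888-46806112, 200 kb) held 0. Together this is 4 peaks in 523 kb, or 0.765 per 100 kb, with an exact Poisson interval of 0.209 to 1.96 for counting error that includes the 0.328 per 100 kb found over chromosomes 1 to 22, X and Y. The median distance from the annotated start to the nearest N-Myc peak was 16.1 kb over the HOXC genes, 29 kb over HOXD and 31.3 kb over HOXA, but 222 kb over HOXB. HOXB genes lay between 99.9 and 250 kb from an N-Myc peak, and the longest distance in the other clusters was 95 kb, at HOXD1. Genes of a cluster are measured to the same few peaks, so their distances are not independent. The share of all protein-coding genes at such distances is not given here. Within 500 kb of the HOXB cluster there were nevertheless 11 N-Myc peaks. Over all 39 genes the median was 36 kb, and over all protein-coding genes it was 58.7 kb.

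No JMJD6 peak lay inside any of the clusters. The nearest was 211 kb from HOXC, at the promoter of CALCOCO1, a neighbour of HOXC13 whose promoter N-Myc and JMJD6 shared. JMJD6 peaks were 686 kb from HOXB, 5715 kb from HOXA and 6451 kb from HOXD. The median distance from a HOX start to a JMJD6 peak was 5718 kb, against 2535 kb for all protein-coding genes. The JMJD6 list is much shorter than that of N-Myc, with 561 peaks against 10172, and the part of list length in these distances was not tested.

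**Figure D2:**
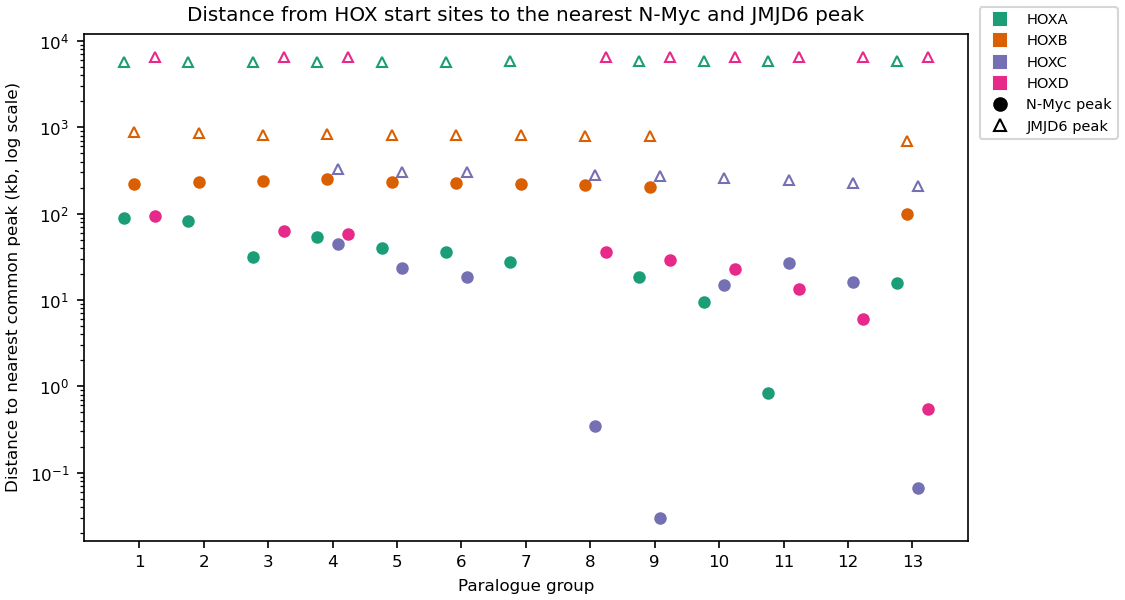
Distance in kb (log scale) from the annotated start of each of 39 HOX genes to the nearest N-Myc peak (filled circles) and JMJD6 peak (open triangles), by paralogue group on the x axis and cluster by colour. HOXC9 lies within its peak (distance 0) and is drawn at the lowest point, and HOXC13, HOXC8, HOXD13 and HOXA11 are the other 4 genes under 1 kb.

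The next question was whether HOX genes are assigned to enhancers bound by N-Myc. Typical enhancers and super-enhancers had been defined from acetylation of histone H3 at lysine 27 (H3K27ac) away from start sites, and each was given the names of its nearest genes. N-Myc-bound typical enhancers carried the names of 3 HOX genes, HOXC4, HOXC6 and HOXC8, or 7.69% of the 39 (1.62 to 20.9%), against 31.9% of all protein-coding genes. The interval lies below the share of all genes. The 39 genes stand within 523 kb in all and a region names only its nearest genes, and the part of this spacing in the difference was not tested. No N-Myc-bound super-enhancer named a HOX gene (0 of 39, up to 9.03%, against 1.31% of all genes), and no typical enhancer or super-enhancer bound by JMJD6 did.

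One of these enhancers lies within the HOXC cluster. It spans chr12:54393375-54427596, 34.2 kb, which is longer than 99.4% of N-Myc-bound typical enhancers (median 2.55 kb), and it was named for HOXC6 and HOXC8. It holds the peaks of HOXC9 and HOXC8 described above, so those peaks are counted both at promoters and in this enhancer. Of 4649 N-Myc-bound typical enhancers, 729 held at least 2 peaks. The region overlaps the annotated bodies of 5 HOX genes (HOXC4, HOXC5, HOXC6, HOXC8 and HOXC9), of which HOXC4, HOXC5 and HOXC9 were not among its names. The other enhancer, chr12:54566608-54567178, is 0.571 kb long, lies in SMUG1, which encodes a uracil-DNA glycosylase, and was named for SMUG1 and, 119232 bp away, for HOXC4. Its peak (chr12:54566906-54567177, 272 bp) held no canonical E-box and 1 non-canonical motif, CACGCG. Together, 6 of 39 HOX genes (15.4%, 5.86 to 30.5%) were in at least 1 N-Myc list. The matching share of all protein-coding genes was not computed. It is at least the 31.9% that were named for an N-Myc-bound typical enhancer.

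The E-box content of the peaks was then compared with that of the HOX promoters as a whole. Of the 5 peaks that overlap a listed HOX promoter or HOX-named enhancer, 3 held a canonical E-box (HOXC9, HOXC13 and HOXD13, 60%, 14.7 to 94.7%), against 33.4% of all N-Myc peaks, and the interval includes that share. CACGTG reads the same on both strands. Counting also the non-canonical motifs CACGCG and CATGTG and CATGCG and CACGAG on both strands, all 5 held at least 1. The HOXC9 peak held a canonical E-box only. A non-canonical motif, with or without a canonical one, was present in 68.3% of N-Myc peaks. The share of all N-Myc peaks with either kind was not computed, so the count of 5 has no matching share beside it.

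Many HOX promoters that were not listed held the same motif. A canonical E-box was present within 1 kb of the annotated start of 22 of 39 HOX genes (56.4%, 39.6 to 72.2%), against 29.2% of all protein-coding genes. These 22 genes had 27 such E-boxes, and 5 of the 27 were inside an N-Myc peak. The matching share over the E-boxes of all promoters was not computed. All 22 E-boxes upstream of a start began within 250 bp of it, and those of HOXA7 and HOXC11 reached the start. In that window, which was chosen after these positions were seen, 18 of 39 HOX genes had a whole E-box (46.2%, 30.1 to 62.8%), against 7.87% of all protein-coding genes. The E-box sites were found in each cluster, at 6 HOXA, 4 HOXB, 5 HOXC and 7 HOXD genes. A match in the reference sequence is a description of that sequence, and factor occupancy cannot be read from it.

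The 26-base windows printed next show E-boxes of paralogues that lie in similar sequence, and sites with and without an N-Myc peak. Each is the E-box in capitals with 10 bases on either side, 5′ to 3′ on the strand of the gene, from GRCh37.
HOXD9 at -45, no peak: taaatatgatCACGTGggccgcgcga
HOXA5 at -85, no peak: acaacaaaagCACGTGattcgaagtc
HOXB5 at -77, no peak: tcaacaaaagCACGTGattccctaac
HOXA7 at -5, no peak: tgtgggcggtCACGTGctgcggcgag
HOXB7 at -29, no peak: tgggcggggtCACGTGgtccggagag
HOXD13 at -131, no peak: ttcctaccccCACGTGgccgcgcgca
HOXD13 at 773, inside a peak: cccttaccagCACGTGcccggctata
HOXA11 at 954, inside a peak: aaggcgggatCACGTGgcgagtgctg
The number after each name is the distance in bp from the annotated start to the first base of the E-box, negative upstream. No peak means that the site lay in no N-Myc peak common to all 3 replicates.

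HOXC9 and HOXD9 shared 14 of the 20 bases that flank the E-box. Only the HOXC9 site lay in a listed N-Myc peak, and the nearest such peak to HOXD9 was 29 kb away. The HOXC9 peak was narrow (223 bp, percentile 0.973). The list holds only peaks common to all 3 replicates, so a peak at HOXD9 in fewer replicates would not be seen. HOXA5, a factor of lung and cervical patterning, and its paralogue HOXB5 also shared 14 of 20, as did HOXA7 and HOXB7, and all 4 of those promoters were without a peak. These were the most alike of 346 pairs of windows from different genes, whose median was 6 of 20. The HOXD13 sites were less like those of HOXC13, with 3 to 7 of 20 flanking bases shared. The HOXD13 site inside an N-Myc peak was not the upstream one. Pairs within a paralogue group, 22 in all, had a median of 7 of 20.

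**Figure D3:**
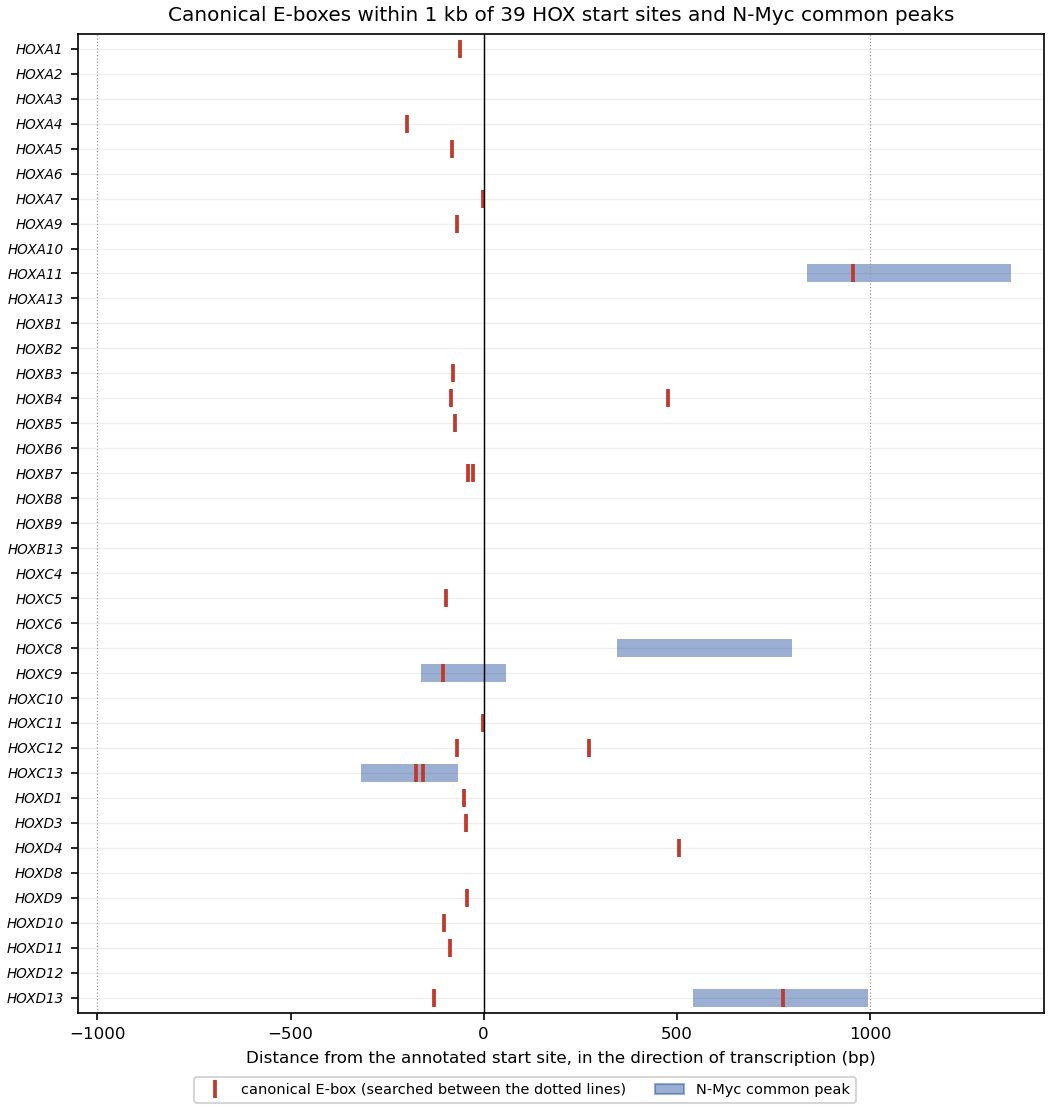
Canonical E-boxes (red ticks) within 1 kb of the annotated start of each of 39 HOX genes and N-Myc common peaks (blue bars), by distance in bp from the start in the direction of transcription. Most E-boxes stand just upstream of a start with no peak over them, and 5 of 27 are covered by a peak. The matching share over the E-boxes of all promoters was not computed.

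Genes with and without an E-box were compared for N-Myc listing. Among HOX genes with a canonical E-box within 1 kb, 3 of 22 were listed (13.6%, 2.91 to 34.9%: HOXC9, HOXC13 and HOXD13), against 28.2% of all protein-coding genes with one. Among HOX genes without one, 1 of 17 was listed (5.88%, 0.149 to 28.7%: HOXC8), against 13.1% of all such genes. For the 250 bp before the start, 3 of 18 HOX genes with an E-box were listed (16.7%, 3.58 to 41.4%), against 30.9% of all such genes. Each HOX share was below that of all genes, and each interval includes the share of all genes, so a difference was not detectable with this number of genes. Across the whole clusters, 72 canonical E-boxes were found, and 3 of them were inside an N-Myc peak, at HOXA11, HOXC9 and HOXD13 (the HOXC13 peak lies just outside the cluster end). The share of canonical E-boxes inside an N-Myc peak over the genome was not computed, so 3 of 72 cannot be called low or high.

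**Figure D4:**
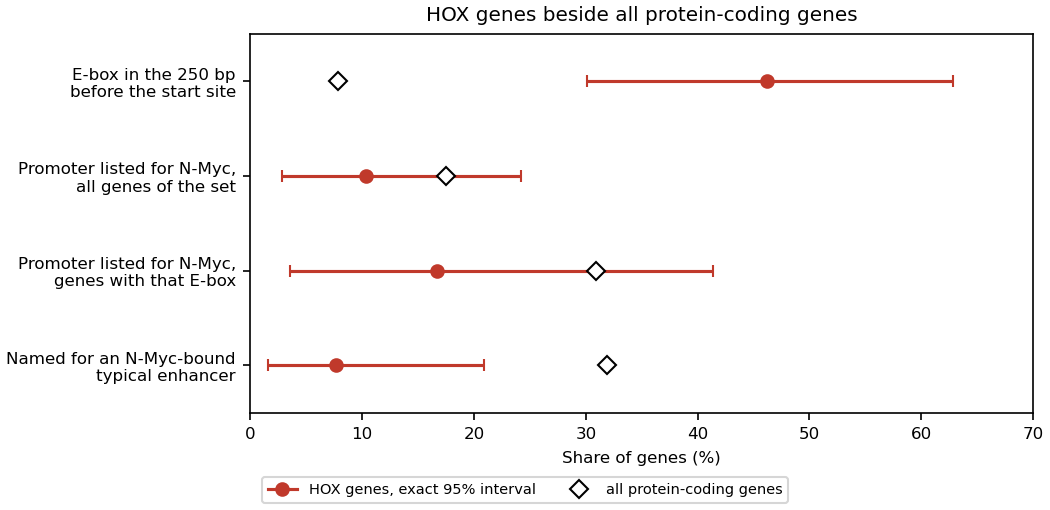
Shares in % of HOX genes (red, with the exact 95% interval) beside all protein-coding genes (open diamonds) for 4 measures. HOX genes stand above all genes for an E-box in the 250 bp before the start (46.2% against 7.87%). That window was chosen after the positions of the HOX E-boxes were seen. HOX genes stand below all genes for N-Myc-bound typical enhancers (7.69% against 31.9%), and have intervals that include the share of all genes for N-Myc promoter listing.

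Genes related to HOX function were looked up in the same lists, where 17.5% of all protein-coding genes had an N-Myc-listed promoter, 31.9% were named for an N-Myc-bound typical enhancer and 1.31% for a super-enhancer. Of 25 non-coding RNAs of the clusters, HOXC-AS1 and HOXC13-AS had N-Myc-listed promoters (8%, 0.984 to 26%). The miRNAs of the miR-10 and miR-196 families, HOTAIR and HOTTIP were among the 23 without. HOXC-AS1 and HOXC13-AS share the peaks of HOXC9 and HOXC13 described above. The share over all non-coding RNAs was not computed. Of 11 TALE homeodomain proteins, which bind DNA together with HOX proteins, PBX3 and MEIS1 were listed at promoters (18.2%, 2.28 to 51.8%). N-Myc-bound typical enhancers named 8 of the 11, against 31.9% of all genes. Among these were PBX2, PBX3, MEIS1, MEIS2, PKNOX1, PKNOX2 and TGIF1, with MEIS1 also named for a super-enhancer. Of 15 regulators of HOX genes, the promoters of KMT2A, a histone H3 lysine 4 methyltransferase, and of its partner MEN1 were listed (13.3%, 1.66 to 40.5%), and 7 of 15 were named for a typical enhancer (KMT2A, KMT2D, KDM6B, RARA, RARB, EGR2 and GDF11), RARA also for a super-enhancer. Of 13 genes that flank the clusters, HIBADH, CALCOCO1 and CBX5 had N-Myc-listed promoters (23.1%, 5.04 to 53.8%), SKAP2, SMUG1 and MTX2 were named for typical enhancers, and SMUG1 and CBX5 for super-enhancers. Of 20 homeobox genes of other families, DLX3 alone had a listed promoter (5%, 0.127 to 24.9%), and GBX2, DLX1 and PAX3 were named for typical enhancers. The promoter intervals of these 4 lists of protein-coding genes all include the 17.5% of all genes. The enhancer counts are given without intervals, and their difference from all genes was not tested, nor was the part of gene spacing in it. JMJD6 was listed at 1 gene of all these lists, CALCOCO1.

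Genes of the adrenergic state of neuroblastoma, 10 in all, were looked up in the same lists. Expression is not analysed here, and the cell type cannot be read from binding lists. GATA2 alone had an N-Myc-listed promoter (10%, 0.253 to 44.5%), against 17.5% of all protein-coding genes. N-Myc-bound typical enhancers named 7 of the 10, among them PHOX2A, HAND2, GATA3, ISL1, TBX2 and TH, against 31.9% of all genes. Super-enhancers named 3 of the 10, among them HAND2 and GATA3, against 1.31% of all genes. These enhancer counts are given without intervals, and their difference from all genes was not tested. A region names only its nearest genes, and the part of gene spacing in these counts was not tested.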

How the data were processed

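ChIP-Seq of CHP-134 cells was grouped by the antibody in the labels (3 N-Myc and 3 JMJD6 replicates). Per the labels and the methods of the study, the authors aligned reads to hg19 with BWA, called peaks against input with MACS2 2.1.1.20160309 (q-value below 0.05), used SAMtools and bedtools, and kept peaks common to all 3 replicates. Enhancers and super-enhancers came from ROSE (H3K27ac, stitched within 12.5 kb), with nearest genes from GREAT. The 12 deposited lists hold positions in bp (no score, count or fraction), and no test or replicate comparison was possible. Depth was not used here. The H3K27ac data were not used here.

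Genes and start sites came from GENCODE version 44 on GRCh37. Of the N-Myc promoters with an annotated symbol, 87.9% were centred within 100 bp of an annotated start. The canonical start is that of the annotation's canonical transcript. Overlap meant at least 1 bp. Motifs were searched in the reference on both strands. Shares have exact 95% intervals. Coordinates are 1-based. Helper functions were tested on simulated data. Python 3.11.15, numpy 2.4.6, SciPy 1.17.1, pysam 0.24.0 and matplotlib 3.10.9 were used. Every HOX gene with a listed promoter, an enhancer name or a peak in its body or within 1 kb of a start was described singly, and the others by cluster, count and distance. The members and gene lists were chosen with earlier results of these data known. Some genes and sequences are not reported here.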

Additional observations from a re-analysis of the deposited data

How the results depend on the processing

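Of 23 alternative values, 19 stayed within 1.5 times the reported count, and 4 did not. The number of HOX genes with N-Myc at the promoter was 4 in the list, 10 with a common peak within 10 kb of any annotated start, and 2 (HOXC8 and HOXD13) with peaks at least as wide as the median, so HOXC9 and HOXC13 rest on narrow peaks. The number named for an N-Myc-bound typical enhancer was 3, and 5 where the enhancer had to lie over the gene body. The number of peaks with an E-box was 3, and 5 where non-canonical motifs were counted as well. The canonical start and the 250 bp window were added after the data were seen. JMJD6 promoters and N-Myc super-enhancers stayed at 0 under every alternative run. No paired analysis was possible because the lists have no column per replicate, and replicates could not be left out. Without peak heights, the strength of binding at these genes cannot be ranked.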
